A study of Mus musculus with 9 samples.

Results

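The 39 genes described here encode proteins of the nucleolus that transcribe ribosomal RNA, modify it, cut it and assemble it into ribosomal subunits. They were taken from a list of gene symbols arranged by role, and all 39 were found among the 53379 gene IDs counted in each library. RNA-seq was done on knee joints of male C57BL/6 mice in 3 groups of 3 libraries. Luc and PC2 mice had the anterior cruciate ligament transected (ACLT) at 8 weeks of age, a model of osteoarthritis, and received a lentivirus into the joint 1 week later. The virus expressed luciferase (Luc), the control, or PC2, and joints were collected 8 weeks after the virus. Non surgery joints were not operated, and the labels give neither their age at collection nor whether they received a virus. Operation and virus therefore cannot be told apart in Luc against Non surgery, while PC2 against Luc compares the virus insert in operated joints. Per the labels' protocols, each group's RNA was pooled and read as 3 technical repeats, so a group is 1 pool. Every SD, standard error and p-value below measures the spread between repeats of a pool and does not include variation among mice. How many mice made up a pool, and which cells the virus reached, is not stated in the labels.

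The nucleolus forms around the ribosomal RNA genes, where RNA polymerase I (Pol I) makes a long precursor. Small nucleolar RNAs (snoRNAs) guide the enzymes that methylate the precursor (box C/D particles) or convert its uridines to pseudouridine (box H/ACA particles). A large assembly, the small subunit processome, folds and cuts the part that becomes the small subunit, and other factors mature the large subunit before both leave for the cytoplasm. The series title names nucleolar homeostasis as its subject.

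Between 17835989 and 19004316 reads per library fell in genes. The 39 genes had 159 to 8207 counts per gene and library, and all passed the filter on low counts. Values are counts per 1000000 (CPM) on library sizes scaled by TMM, the scaling of edgeR. Cell type markers differed widely between the pools. Summed muscle markers lay at 72007 to 74259 CPM in Non surgery, 27900 to 28419 in Luc and 32691 to 32827 in PC2 libraries. Summed cartilage markers lay at 950.6 to 1063, 5365 to 5505 and 8645 to 8796 CPM, and bone markers at 4824 to 5287, 15865 to 16441 and 18507 to 18704 CPM. In Luc against Non surgery all 15 muscle and 11 erythroid markers fell and all 12 cartilage, 12 bone and 10 fibroblast and synovium markers rose. B cell markers rose in 11 of 12. Of 9 endothelial markers 8 rose and 1 fell, and of 12 neutrophil markers 2 rose and 10 fell. Adipocyte markers split into 3 higher and 5 lower, macrophage markers into 4 and 4. Of all genes, 31.1% rose and 27.7% fell. Between PC2 and Luc 12 of 12 cartilage, 11 of 15 muscle and 8 of 10 adipocyte markers rose, and 1 muscle marker fell. Meanwhile 11 of 12 B cell and 8 of 9 endothelial markers fell, and 1 endothelial marker rose. Neutrophil markers split into 7 higher and 2 lower, fibroblast and synovium markers into 4 and 5, erythroid markers into 1 and 4, macrophage markers into 1 and 3. Bone markers split into 5 higher and 5 lower (median log2 fold change -0.03) although their sum was higher. Of all genes, 16.1% rose and 18.6% fell. No marker of these lists was at 0 in all libraries. The part of this tissue makeup in the results below was not tested, and in such bulk samples fewer cells of a type and less RNA per cell cannot be told apart.

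In Luc against Non surgery, 16 of the 39 genes passed the test (edgeR quasi-likelihood test, Benjamini-Hochberg adjusted p under 0.05 over 17478 genes). Of these, 13 fell and 3 rose. That is 41.0% of the 39, against 58.8% of all genes tested, of which 31.1% rose and 27.7% fell. Rrp12, Rrn3 and Utp20 fell the most, by 0.90, 0.61 and 0.59 on the log2 scale, and Gar1 rose the most, by 0.49. The median log2 fold change of the 39 genes was -0.07, beside 0.02 for all genes, and single genes ranged from -0.90 to 0.49. Libraries of the groups did not overlap for 20 of the 39 genes (51.3%), against 62.9% of all genes. With a fold change of at least 1.2 asked for as well, 8 of the 39 genes and 46.7% of all genes passed. The split into higher and lower calls depended on the scaling. With library size in place of TMM factors, all genes had a median of 0.19 rather than 0.02. Of the 39 genes 15 then rose and 5 fell, where 63.27% of all genes passed, 7754 of the 17478 being higher. The 5 of the 39 that fell were Rrp12, Rrn3, Utp20, Wdr12 and Nop2. The 3 that rose on the TMM scale (Gar1, Gnl3 and Ubtf) rose on both. The other 8 decreases on the TMM scale did not pass with library size, and Wdr43 and Nop14 then stood at 0.05 and 0.01.

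In PC2 against Luc, 14 of the 39 genes passed, 11 lower and 3 higher in PC2 libraries. That is 35.9%, against 34.7% of all genes tested, of which 16.1% rose and 18.6% fell, so the share was near the background. Utp20 and Heatr1 of the small subunit processome fell the most, by 0.32 and 0.28, followed by nucleolin (Ncl) at -0.25. Nop10, Emg1 and Rrn3 rose by 0.32, 0.22 and 0.15. The median of the 39 genes was -0.06, beside 0.01 for all genes, and the range was -0.32 to 0.32. Groups did not overlap for 20 genes (3 higher, 17 lower), or 51.3%, against 48% of all genes. With a fold change of at least 1.2 as well, only Utp20, Heatr1 and Nop10 passed, where 20.9% of all genes did. Upper quartile scaling gave 4 higher and 6 lower calls, where 35.88% of all genes passed. DESeq2 gave 8 calls in all, where 26.91% of all genes passed. Leaving out Luc replicate 1 or PC2 replicate 3 left 8 calls, and leaving out Luc replicate 2, PC2 replicate 1 or PC2 replicate 2 left 9. Of all genes, 27.6% to 29.89% passed in these fits.

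**Figure D1:**
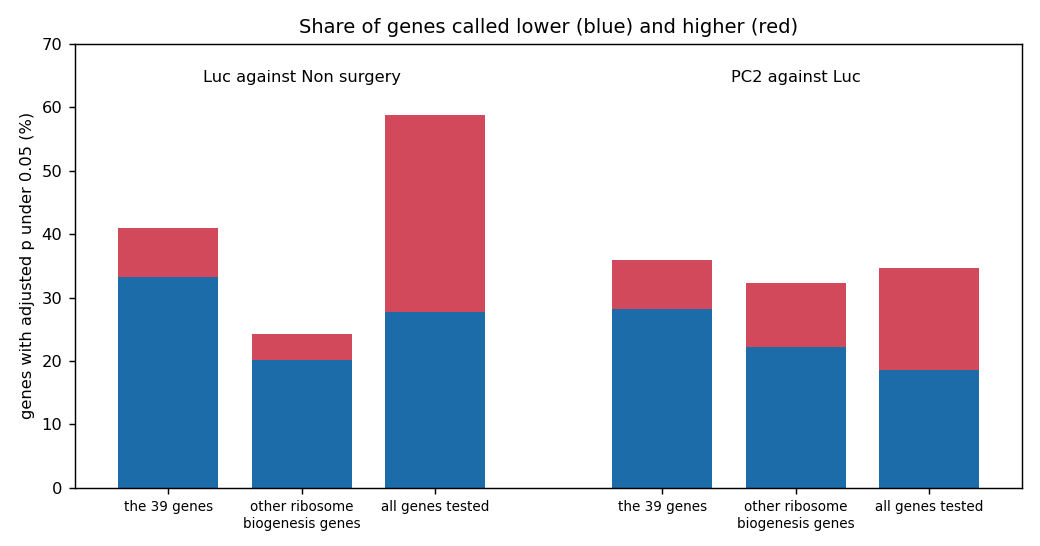
Percent of genes with adjusted p under 0.05, as stacked bars with lower genes in blue below higher genes in red, for the 39 genes, the other ribosome biogenesis genes and all genes tested. In PC2 against Luc the 39 genes stood at 35.9% called in all, near the 34.7% of all genes, and in Luc against Non surgery at 41.0% against 58.8%.

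**Figure D2:**
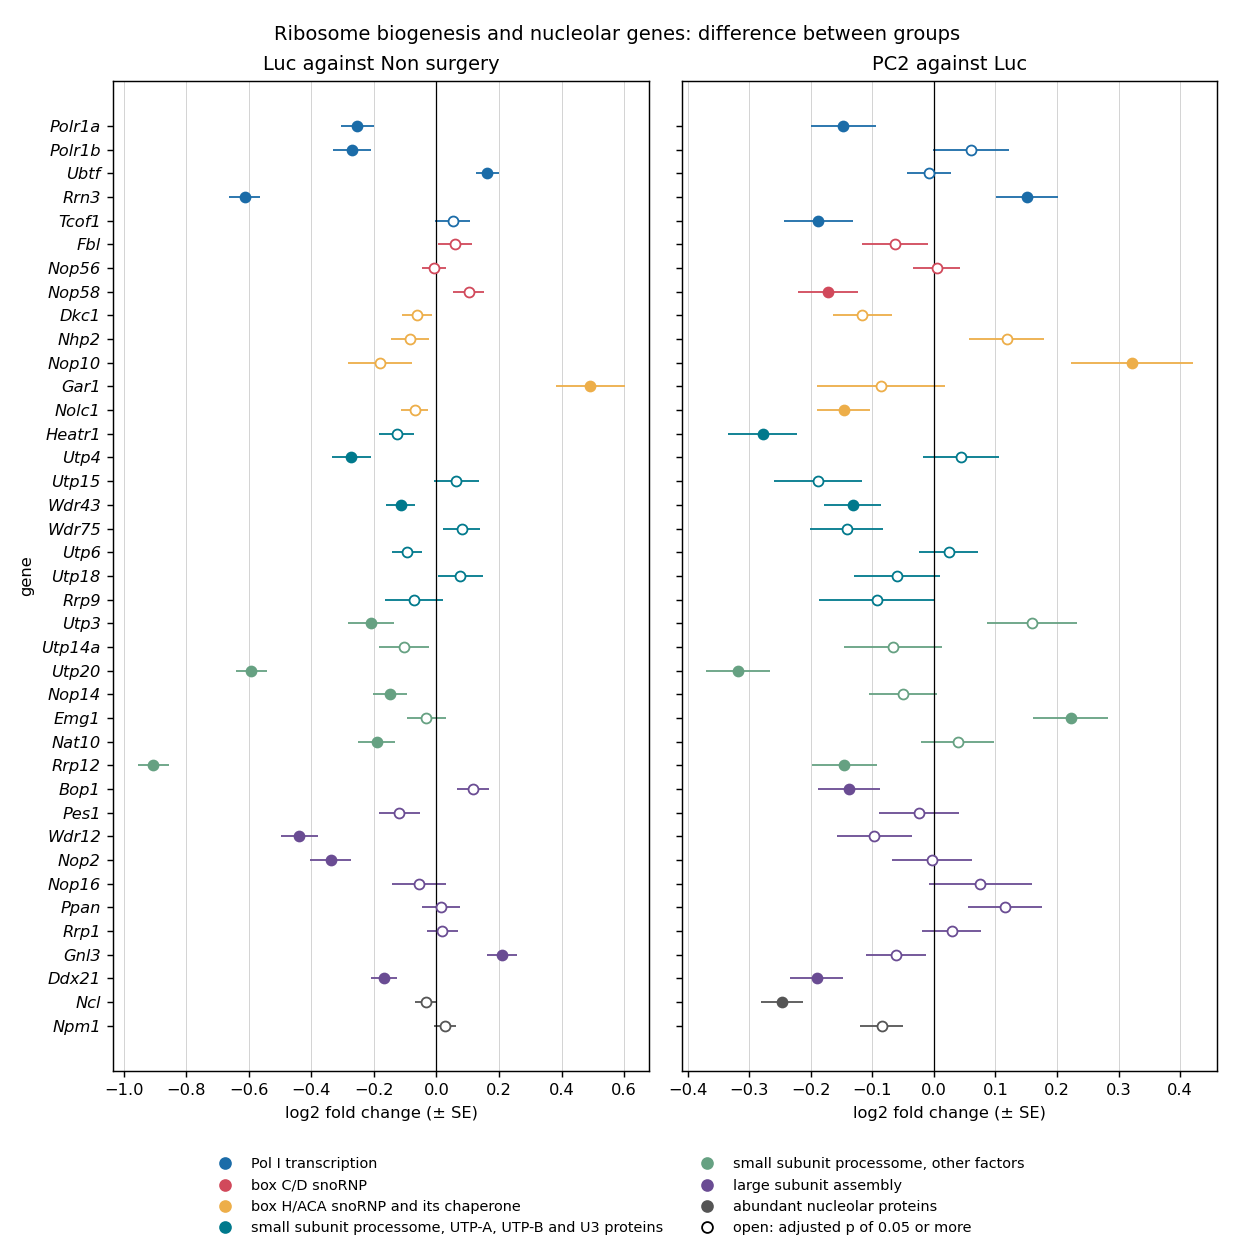
Log2 fold change with its standard error for each of the 39 genes, grouped by role, in Luc against Non surgery and PC2 against Luc, with open points at an adjusted p of 0.05 or more. Rrp12, Rrn3 and Utp20 lie farthest to the left in the first comparison and Utp20 and Heatr1 in the second.

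Of the 5 genes of Pol I transcription, 3 fell and 1 rose in Luc against Non surgery (80.0% passed, beside 58.8% of all genes). Rrn3, the factor that brings Pol I to the promoter of the ribosomal RNA genes, had 54.7, 53.1 and 51.9 CPM in Non surgery, 32.8, 35.0 and 36.5 in Luc and 38.5, 38.2 and 39.2 in PC2 libraries. The groups did not overlap in either comparison, and every Luc library lay below all others. Its log2 fold change was -0.61 ± 0.05 (SE, adjusted p = 1.29e-08) in Luc against Non surgery and 0.15 ± 0.05 (adjusted p = 0.0279) in PC2 against Luc. The second call was lost with DESeq2 (adjusted p = 0.073) and without Luc replicate 1 (adjusted p = 0.139), Luc replicate 2 (adjusted p = 0.0545), PC2 replicate 1 (adjusted p = 0.056) or PC2 replicate 3 (adjusted p = 0.0793). In PC2 against Non surgery, which shares its libraries with both, Rrn3 stood at -0.46. Polr1a, the largest Pol I subunit, had 62.6, 67.1 and 59.4 CPM in Non surgery, 52.8, 54.0 and 52.1 in Luc and 46.5, 50.6 and 46.2 in PC2 libraries. All Luc libraries lay below Non surgery (log2 fold change -0.25 ± 0.05, adjusted p = 0.000558) and all PC2 libraries below Luc (-0.15 ± 0.05, adjusted p = 0.0408). With library size in place of TMM factors the first difference stood at -0.09 and did not pass (adjusted p = 0.141). The second difference did not pass without any 1 Luc library, PC2 replicate 1 or PC2 replicate 3 (adjusted p from 0.0653 to 0.148). Polr1b, the subunit that completes the active centre with Polr1a, fell in Luc against Non surgery by 0.27 (adjusted p = 0.00121). With library size only, Polr1b stood at -0.11 (adjusted p = 0.131). Its PC2 value was 0.06 above Luc (adjusted p = 0.488).

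Ubtf, which binds and bends ribosomal DNA, had 152.1, 164.1 and 159.0 CPM in Non surgery, 174.1, 177.0 and 180.8 in Luc and 174.1, 178.2 and 176.7 in PC2 libraries. It rose in Luc libraries by 0.16 ± 0.04 (adjusted p = 0.000969), while PC2 and Luc overlapped (-0.01, adjusted p = 0.894). Tcof1 (treacle), a scaffold that links Ubtf and Pol I to later steps, had 53.1, 53.6 and 53.2 CPM in Luc and 45.4, 48.2 and 46.7 in PC2 libraries and fell by 0.19 ± 0.06 (adjusted p = 0.0172, and 0.0659 without PC2 replicate 1). Its Luc and Non surgery libraries overlapped. The 5 genes thus took different directions within each comparison.

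E-boxes (letters CACGTG) are bound by MYC with its partner MAX, a known activator of ribosome biogenesis genes. RefSeq promoter windows (GRCm38.p6) matched 33 of the 39 genes, and in 30 of them the window held the start of an annotated transcript. In the 250 bases upstream, read on both strands, 3 of 33 held CACGTG (9.09%), beside 8.05% of 11390 promoters of the same length. The 3 are shown because they include Rrn3 and Nop2, which were among the genes that fell in Luc libraries. The E-box is in capitals, and of the 2 in the Rrn3 window the one farther upstream is shown.
Rrn3, chr16:13780449-13780546, plus strand: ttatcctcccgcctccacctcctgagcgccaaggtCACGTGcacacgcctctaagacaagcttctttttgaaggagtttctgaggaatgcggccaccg
Nop2, chr6:125131766-125131882, plus strand: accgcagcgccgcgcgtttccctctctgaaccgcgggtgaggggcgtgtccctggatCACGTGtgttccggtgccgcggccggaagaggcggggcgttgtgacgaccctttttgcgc
Utp18, chr11:93885767-93885843, minus strand: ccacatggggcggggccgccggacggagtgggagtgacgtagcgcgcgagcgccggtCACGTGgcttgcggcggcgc
Utp18 did not pass in either comparison (log2 fold changes 0.08 and -0.06), so the 3 genes with these letters did not move alike. Letters of an ETS site (CCGGAAG) stood in 9 of 33 (27.3%, against 12.8%) and of a GC box (GGGCGG) in 20 of 33 (60.6%, against 56.8%). Letters of a CCAAT box (CCAAT) stood in 27.3% against 36%, of an E2F site (TTTCCCGC) in 6.06% against 1.68%, and of a TATA box (TATAAA) in 9.09% against 6.95%. None of the 33 held the NRF1 motif or AAGATGGCG (YY1), which stood in 1.48% and 0.983% of all. A match in these windows describes letters and shows no binding.

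Of the 3 box C/D proteins, none passed in Luc against Non surgery, where 58.8% of all genes did. In PC2 against Luc 1 fell (33.3%, beside 34.7% of all genes passing). Fbl (fibrillarin), the ribose methyltransferase of the particle, had 50.5, 49.7 and 47.4 CPM in Non surgery, 52.8, 49.0 and 52.2 in Luc and 45.9, 48.7 and 52.7 in PC2 libraries. Nop56, one of its core scaffold proteins, had 74.8, 74.8 and 75.2, then 76.7, 73.3 and 73.4, then 73.6, 76.4 and 74.0 CPM. The 3 ranges overlapped for both genes. Neither passed, with log2 fold changes of 0.06 and -0.06 for Fbl (adjusted p = 0.367 and 0.397) and -0.01 and 0.00 for Nop56 (adjusted p = 0.851 and 0.944). Nop58, the paralog of Nop56, had 56.6, 61.2 and 55.8 CPM in Luc and 53.0, 50.9 and 50.04 in PC2 libraries. It fell by 0.17 ± 0.05 (adjusted p = 0.0118) without overlap. The call was lost without Luc replicate 2 (adjusted p = 0.0705) or PC2 replicate 3 (adjusted p = 0.0537). Nop58 stood at -0.04 (adjusted p = 0.565) once the length trend described further on, fitted on the merged exons of a gene, was removed.

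Several of these genes also have snoRNA genes within their bounds. An annotated snoRNA gene lay within 7 of the 39 genes on the same strand (17.9%), against 1.54% of the 14607 protein-coding genes tested. Nop56 held 5, Nop58 4, Wdr43, Gnl3 and Ncl 3 each, Ppan 2 and Dkc1 1. Of these 21 snoRNAs, 10 held TGATGA (box C) near the 5′ end and CTGA (box D) near the 3′ end, as written on their own strand. An example from each of 3 host genes is shown, with both boxes in capitals, from GENCODE M21 (GRCm38).
Snord110 in Nop56, chr2:130275506-130275573, plus strand: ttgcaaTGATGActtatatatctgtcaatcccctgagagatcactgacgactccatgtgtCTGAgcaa
Snord11 in Nop58, chr1:59704790-59704873, plus strand: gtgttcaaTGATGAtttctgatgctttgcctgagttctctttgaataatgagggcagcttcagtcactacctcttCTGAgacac
Snord82 in Ncl, chr1:86356261-86356330, minus strand: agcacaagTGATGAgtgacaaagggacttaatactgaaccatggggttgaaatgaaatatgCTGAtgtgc
The libraries say little of the snoRNAs themselves. Snord110 had 10 counts, Snord11 3 and Snord82 0 over all 9 libraries, and 14 of the 21 were at 0. Some of the 21 overlap annotated exons of their host gene (in Nop56, Nop58, Ppan, Gnl3 and Ncl), where a read fits both genes.

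The 4 box H/ACA proteins and their chaperone split by gene. Gar1 had 9.53, 9.78 and 9.79 CPM in Non surgery, 11.8, 13.9 and 15.3 in Luc and 11.1, 14.2 and 13.3 in PC2 libraries. It rose 1.41-fold in Luc libraries (log2 fold change 0.49 ± 0.11, adjusted p = 0.00109) and overlapped between Luc and PC2. Nop10, the smallest core protein of the particle, had 13.3, 17.2 and 16.2 CPM in Luc and 19.9, 20.2 and 18.3 in PC2 libraries, without overlap, and 15.7, 19.7 and 17.5 in Non surgery. It rose 1.25-fold in PC2 libraries (0.32 ± 0.10, adjusted p = 0.0193). The call was lost without Luc replicate 1 (0.22, adjusted p = 0.105), the lowest library, and without PC2 replicate 2 (adjusted p = 0.0706). Nolc1, which carries box C/D and box H/ACA particles through the nucleolus, had 68.4, 68.9 and 71.4 CPM in Luc and 63.2, 60.7 and 64.7 in PC2 libraries. It fell by 0.15 ± 0.04 (adjusted p = 0.0145), a call lost without Luc replicate 3 (adjusted p = 0.0703) or PC2 replicate 2 (adjusted p = 0.0765). Dkc1 (dyskerin), the pseudouridine synthase, stood at -0.12 (adjusted p = 0.0720) and Nhp2 at 0.12 (adjusted p = 0.148) in PC2 against Luc, and neither passed in Luc against Non surgery.

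**Figure D3:**
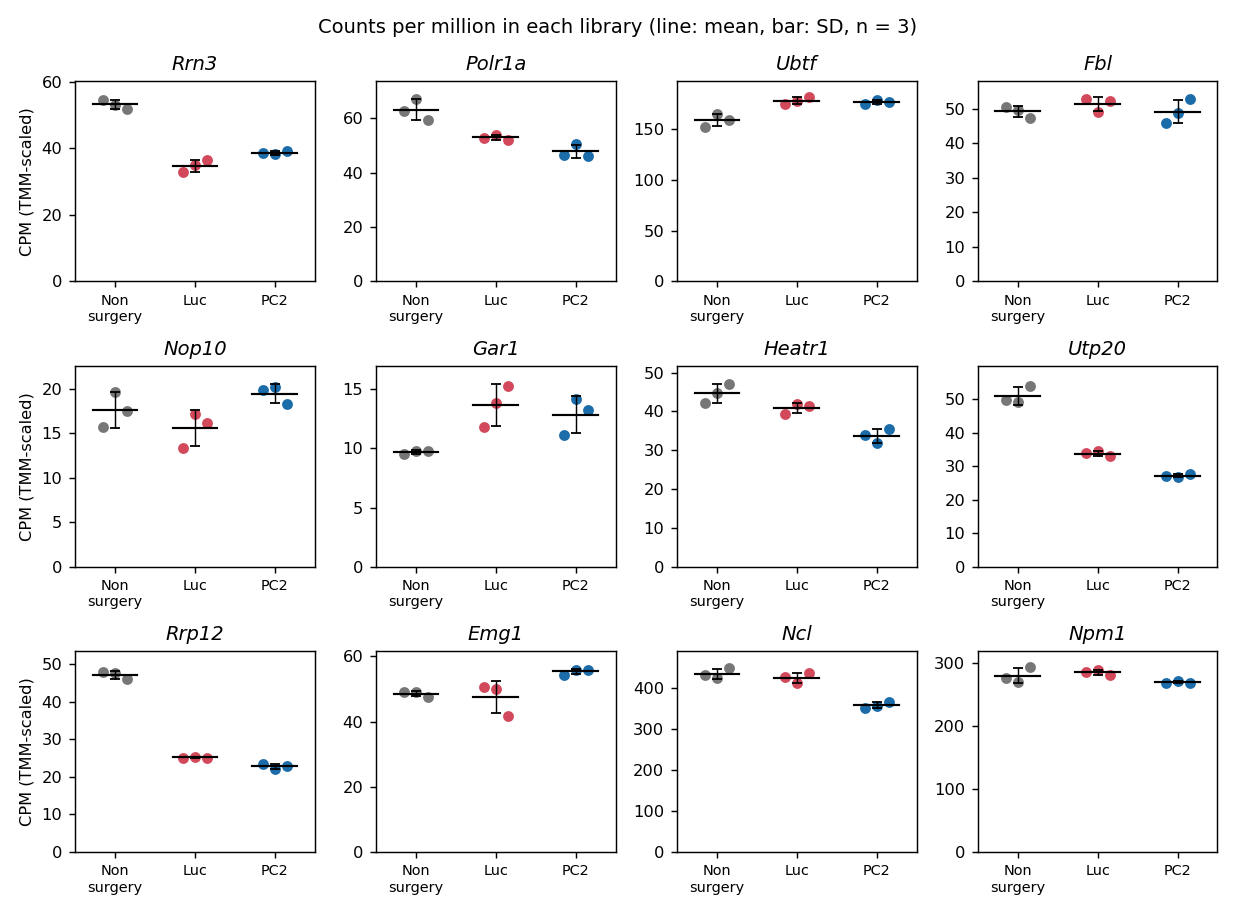
CPM of 12 of the genes in each of the 9 libraries, with the mean and SD of each group of 3. Rrp12 and Utp20 step down from Non surgery to Luc, Ncl and Heatr1 lie lower in PC2 than in Luc libraries, and Fbl and Npm1 overlap between Non surgery and Luc.

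The single largest decrease among the 39 genes was that of a small subunit processome gene in each comparison (Rrp12, then Utp20). Heatr1, a long repeat protein of the UTP-A complex (chr13:12395027-12440289, plus strand), had 42.1, 44.7 and 47.0 CPM in Non surgery, 39.3, 41.9 and 41.3 in Luc and 33.8, 31.8 and 35.4 in PC2 libraries. All PC2 libraries lay below all Luc libraries, and it fell 1.21-fold (log2 fold change -0.28 ± 0.06, adjusted p = 0.00105). In Luc against Non surgery it stood at -0.13 (adjusted p = 0.0576). Utp4 of the same complex had 30.3, 27.8 and 30.2 CPM in Non surgery, 24.4, 23.1 and 25.6 in Luc and 24.6, 25.1 and 25.6 in PC2 libraries. It fell in Luc libraries by 0.27 ± 0.06 (adjusted p = 0.00117) and stood at 0.04 in PC2 against Luc (adjusted p = 0.625). The decrease in Luc libraries did not pass with library size only (-0.11, adjusted p = 0.127). Wdr43 had 57.4, 53.0 and 56.3, then 52.7, 49.5 and 51.7, then 46.7, 47.2 and 46.5 CPM. It fell in both comparisons, by 0.11 (adjusted p = 0.0433, and 0.05 higher in Luc with library size only) and 0.13 (adjusted p = 0.0370). The first call was lost without Non surgery replicate 1 or 3, Luc replicate 2 or 3, or PC2 replicate 1 (adjusted p from 0.0539 to 0.14). The second was lost without Luc replicate 1 or 3 or any 1 PC2 library (adjusted p from 0.0658 to 0.128). The other UTP-A members Utp15 and Wdr75, Utp6 and Utp18 of the UTP-B complex, and Rrp9, which binds the U3 snoRNA, did not pass in either comparison. Their log2 fold changes lay between -0.19 (Utp15 in PC2 against Luc, adjusted p = 0.0516) and 0.08 (Wdr75 and Utp18 in Luc against Non surgery).

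Among the other small subunit factors, 5 of 7 fell in Luc against Non surgery, where 58.8% of all genes passed and 27.7% fell. Only Rrp12 and Utp20 of the 5 also passed with library size in place of TMM factors. Rrp12, a repeat protein that accompanies precursors out of the nucleus (chr19:41862851-41896173, minus strand), had 47.8, 47.6 and 46.0 CPM in Non surgery, 25.1, 25.4 and 25.1 in Luc and 23.4, 22.0 and 23.0 in PC2 libraries. It fell 1.87-fold in Luc libraries (-0.90 ± 0.05, adjusted p = 8.84e-11) and again in PC2 libraries by 0.15 ± 0.05 (adjusted p = 0.0426), with no overlap at either step. The second call was lost without any 1 library except Non surgery replicate 2 (adjusted p from 0.0517 to 0.168). Utp20, a very large repeat protein of the processome (chr10:88746607-88826804, minus strand), had 49.6, 49.1 and 54.1 CPM in Non surgery, 33.9, 34.4 and 33.0 in Luc and 27.1, 26.7 and 27.5 in PC2 libraries. It fell 1.51-fold in Luc libraries (-0.59 ± 0.05, adjusted p = 2.31e-08) and 1.25-fold in PC2 against Luc (-0.32 ± 0.05, adjusted p = 0.000182). The 3 groups of Utp20 were fully separate, in the order Non surgery, Luc, PC2.

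Emg1, an rRNA methyltransferase, took the other direction. It had 50.6, 50.1 and 41.8 CPM in Luc and 54.4, 55.9 and 55.9 in PC2 libraries, beside 49.2, 48.9 and 47.6 in Non surgery. It rose 1.17-fold in PC2 libraries (0.22 ± 0.06, adjusted p = 0.00945), and by 0.14 (adjusted p = 0.0352) without Luc replicate 3, the lowest library. Lpcat3 overlaps 7.21% of its exon bases, so reads there cannot be assigned to 1 gene unless strand was used. Utp3, Nat10 (the rRNA acetyltransferase) and Nop14 fell in Luc against Non surgery by 0.21, 0.19 and 0.15 (adjusted p = 0.0223, 0.0114 and 0.0295). With library size in place of TMM factors these 3 calls were lost, and Nop14 stood at 0.01. Single libraries also ended them: Nat10 without Luc replicate 1 (adjusted p = 0.0562), Utp3 without Non surgery replicate 1 or 2 or Luc replicate 1 (adjusted p from 0.0633 to 0.0978), and Nop14 without Non surgery replicate 2 or 3 or Luc replicate 2 (adjusted p from 0.0567 to 0.111). None of the 3 passed in PC2 against Luc. Utp14a did not pass in either comparison (-0.10 and -0.07), and 11.45% of its exon bases are shared with another gene.

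Of the 9 large subunit factors, 3 fell and 1 rose in Luc against Non surgery (44.4% passed, beside 58.8% of all genes). Wdr12, Pes1 and Bop1 form the PeBoW complex, which is needed to process the precursor of the large subunit. Wdr12 had 28.4, 29.6 and 30.6 CPM in Non surgery, 22.1, 22.0 and 21.2 in Luc and 19.9, 20.95 and 20.3 in PC2 libraries. It fell in Luc libraries by 0.44 ± 0.06 (adjusted p = 7.84e-06). PC2 and Luc libraries did not overlap either, but that difference did not pass (-0.10, adjusted p = 0.239). Bop1 had 39.2, 40.5 and 41.2 CPM in Luc and 37.5, 35.7 and 36.7 in PC2 libraries and fell by 0.14 (adjusted p = 0.0466), a call lost without Non surgery replicate 3 or any 1 Luc or PC2 library (adjusted p from 0.0572 to 0.158). Pes1 did not pass in either comparison (-0.12 and -0.02), but passed in Luc against Non surgery without Luc replicate 3 (adjusted p = 0.00445). Bop1 stood at 0.12 in Luc against Non surgery (adjusted p = 0.0615). In PC2 against Luc all 3 partners lay below 0, where 26 of the 39 genes and 8494 of all 17478 did. Only Bop1 of the 3 passed, and Pes1 and Wdr12 reached 0.07 and 0.05 in alternatives. Differences among the 3 were not tested.

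Nop2, an rRNA methyltransferase, had 38.8, 44.0 and 47.0 CPM in Non surgery and 35.0, 32.8 and 34.8 in Luc libraries, and fell by 0.34 ± 0.06 (adjusted p = 0.000263). Its PC2 libraries, at 36.0, 33.2 and 33.3 CPM, overlapped Luc. Ddx21, a helicase that acts in Pol I transcription and processing, had 118.3, 112.3 and 111.7 CPM in Non surgery, 102.0, 103.9 and 98.7 in Luc and 93.6, 87.0 and 86.3 in PC2 libraries. It fell at both steps without overlap on the TMM scale, by 0.17 ± 0.04 (adjusted p = 0.00274) and 0.19 ± 0.04 (adjusted p = 0.00241). The first call was lost with library size in place of TMM factors (-0.0077, adjusted p = 0.885). Gnl3 (nucleostemin), a nucleolar GTPase, rose in Luc against Non surgery by 0.21 (adjusted p = 0.00156) and did not pass in PC2 against Luc (-0.06, adjusted p = 0.355). Nop16, Ppan and Rrp1 passed in neither comparison, with values from -0.06 to 0.12.

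Nucleolin (Ncl) and nucleophosmin (Npm1) are abundant proteins that shape the nucleolus and chaperone its particles. In the main fit, with all 9 libraries and TMM factors, Ncl alone of the pair passed in PC2 against Luc. Ncl (chr1:86344719-86359400, minus strand) had 432.2, 424.1 and 448.9 CPM in Non surgery, 426.6, 411.5 and 436.4 in Luc and 351.3, 356.3 and 366.2 in PC2 libraries. Every PC2 library lay below every other library. Ncl fell 1.19-fold in PC2 against Luc (log2 fold change -0.25 ± 0.03, adjusted p = 3.75e-05), while Luc and Non surgery overlapped (-0.03, adjusted p = 0.412). With library size in place of TMM factors, Ncl in Luc against Non surgery stood at 0.13 (adjusted p = 0.00522). Npm1 had 277.1, 270.2 and 294.1 CPM in Non surgery, 285.7, 289.7 and 282.0 in Luc and 268.3, 271.4 and 269.0 in PC2 libraries. PC2 and Luc libraries of Npm1 did not overlap, but the difference did not pass (-0.08 ± 0.03, adjusted p = 0.0727). Npm1 did pass once the length trend described further on was removed (adjusted p = 0.00715), with or without a replicate block. It also passed with the 2 compared groups alone and without Non surgery replicate 2. In 18 of 22 alternatives Npm1 did not pass, and its values over all 22 ranged from -0.13 to 0.02. A difference between Ncl and Npm1 was not tested. Npm1 has processed pseudogenes in the mouse genome, and the counting of reads shared with them is not described in the labels.

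Levels can be set beside each other once divided by mRNA length. Npm1 was the highest, at 170.6 CPM per kb as the mean of the 3 groups, followed by Ncl at 49.5, Rrp1 at 45.6 and Ubtf at 36.4. Utp20 at 4.23 and Wdr12 at 2.39 CPM per kb were the lowest 2. Summed over the 39 genes, the level was 2406 to 2465 CPM in Non surgery, 2318 to 2341 in Luc and 2174 to 2211 in PC2 libraries, with no overlap on the TMM scale. Divided by library size alone, the sums were 2216 to 2297 in Non surgery, 2396 to 2435 in Luc and 2247 to 2291 in PC2 libraries, with Luc highest and Non surgery and PC2 overlapping, so only the step from Luc to PC2 kept its direction. On the TMM scale without Ncl and Npm1 the group means were 1718, 1617 and 1564 CPM. By group means on the TMM scale, 15 genes followed the order Non surgery, Luc, PC2 from high to low, 7 had Luc highest and PC2 lowest, and 7 had Non surgery highest and Luc lowest. PC2 was highest for 6 genes, Nop10 and Emg1 among them. These orders include genes that passed in neither comparison, such as Rrp9, Pes1 and Utp14a. The matching shares of all genes were not counted, so the orders have no background to be read against.

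The difference between PC2 and Luc went with the length of the mRNA and, over all genes, as closely with its GC content. Across the 39 genes, Spearman's rho between log2 fold change and mRNA length was -0.495, and across the 99 other ribosome biogenesis genes -0.549. Across all 14607 protein-coding genes tested it was -0.302. The genes share the same 6 libraries, so these are descriptions of 1 pair of pools. In 5 classes of length with about equal numbers of protein-coding genes, from the shortest to the longest, the median log2 fold change went from 0.13 to -0.12. Utp20 (8821 bases), Ncl (8202 bases) and Heatr1 (6780 bases) are long, while Nop10 (1109 bases) is short. A length trend over all genes was also removed, fitted on the merged length of all exons of a gene in place of mRNA length. With it removed, Utp20 stood at -0.19 (adjusted p = 0.00967), Heatr1 at -0.20 (adjusted p = 0.0127) and Ncl at -0.12 (adjusted p = 0.0107). All 3 still passed. Npm1, which had not passed before, passed with this trend removed (adjusted p = 0.00715). Emg1 stood at 0.22 and Ddx21 at -0.18, close to their values before. Nop10 no longer passed (0.23, adjusted p = 0.0708), and Polr1a (9216 bases) changed sign to 0.0034. In Luc against Non surgery rho was -0.209 across the 39 genes and 0.032 across all. The rho with GC content in PC2 against Luc was 0.166 across the 39 genes and 0.308 across all protein-coding genes. With the GC trend removed, Ncl stood at -0.15 (adjusted p = 0.00119) and Bop1 at -0.23 (adjusted p = 0.000877), and both passed. Nop58 (-0.04, adjusted p = 0.514) and Wdr43 (-0.06, adjusted p = 0.285) no longer did. In all, 12 of the 39 genes passed with either trend removed, where 31.58% (length) and 34.48% (GC content) of all genes did. The parts of length and GC content in the result were not tested beyond this.

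**Figure D4:**
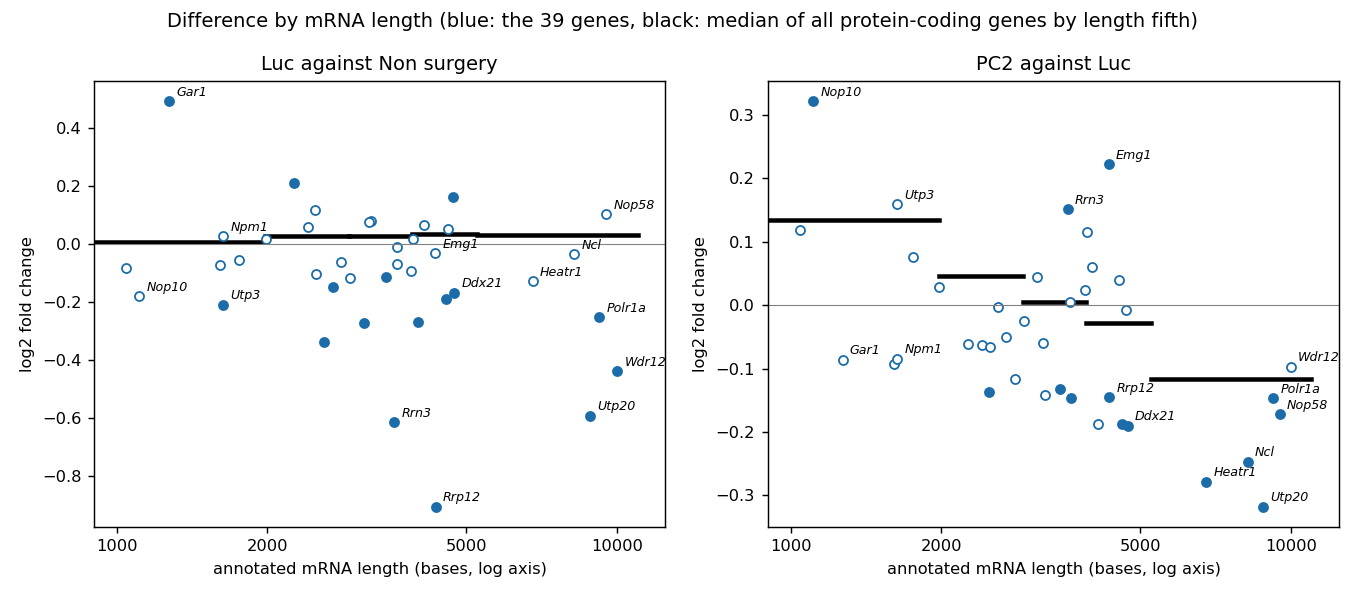
Log2 fold change of the 39 genes (blue) against mRNA length on a log axis, with black bars for the median of all protein-coding genes in each of 5 length classes, their outer ends shortened to the plotted range. Filled points passed at an adjusted p under 0.05. In PC2 against Luc the bars step down from 0.13 to -0.12, and Utp20, Ncl and Heatr1 lie below them.

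The rest of the pathway, 101 genes of which 99 were tested, was counted in the same fits. In Luc against Non surgery 24 passed (24.2%, 4 higher and 20 lower), with a median log2 fold change of -0.02, where 58.8% of all genes passed. With library size in place of TMM factors 52 passed, 44 higher and 8 lower, where 63.27% of all genes passed, 7754 of 17478 being higher. Between PC2 and Luc 32 passed (32.3%, 10 higher and 22 lower), with a median of -0.03, near the 34.7% of all genes. Upper quartile scaling gave 12 higher and 11 lower (35.88% of all genes passed), and DESeq2 5 higher and 7 lower (26.91% of all genes). With the length trend removed 20 passed, 5 higher and 15 lower, where 31.58% of all genes passed. Leaving out Luc replicate 1 left 15 calls and leaving out Luc replicate 3 left 16. Leaving out PC2 replicate 1, PC2 replicate 2 or PC2 replicate 3 left 19, 18 or 20. Of all genes, 27.6% to 29.43% passed in these fits.

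Of the 16 other Pol I genes, 3 fell in Luc against Non surgery (18.8%, beside 58.8% of all genes passing). They were Taf1c (-0.52 ± 0.07, adjusted p = 4.61e-06), a subunit of the promoter selectivity factor, the Pol I subunit Cd3eap (-0.46) and Baz2a (-0.12), which silences ribosomal RNA genes and stood at 0.0379 with library size only. The Baz2a call was also lost without Non surgery replicate 2, Luc replicate 1 or Luc replicate 2. Higher in PC2 than in Luc libraries were Sirt7 (0.26 ± 0.04, adjusted p = 9.41e-05), a deacetylase that acts in the nucleolus, and Polr1c (0.25) and Polr1d (0.23), a pair of subunits shared with RNA polymerase III. Ttf1, the terminator protein, fell by 0.17. Of these only Sirt7 kept its call in every fit that left out a library. Polr1d overlapped between the groups and stood at 0.11 (adjusted p = 0.27) without PC2 replicate 2, its highest library, and its call was also lost without Luc replicate 2 or Luc replicate 3. The call of Polr1c was lost without Luc replicate 1, Luc replicate 3 or PC2 replicate 2, and that of Ttf1 without Luc replicate 1, Luc replicate 2 or any 1 PC2 library. Of 37 other small subunit factors, 3 rose and 7 fell in Luc against Non surgery (27.0% passed), led by Pno1 (-0.44) and Mphosph10 (-0.40). Between PC2 and Luc 32.4% of them passed, beside 34.7% of all genes. Of these, 4 rose, led by Imp3 (0.32), and 8 fell, among them Esf1 (-0.23, and -0.06 with adjusted p = 0.451 once the GC trend was removed). Of 46 other large subunit factors, 1 rose and 10 fell in Luc against Non surgery (23.9%, beside 58.8% of all genes passing). In PC2 against Luc 3 rose and 13 fell (34.8%, beside 34.7%). Mdn1, a giant AAA ATPase that strips factors from the large subunit precursor, led both, at -0.48 (adjusted p = 3.39e-06) and -0.45 (adjusted p = 3.38e-05). Its mRNA has 17970 bases, and with the length trend removed it stood at -0.20 in PC2 against Luc.

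Among 11 genes of the MYC network, 2 rose and 4 fell in Luc against Non surgery, and 1 rose and 3 fell in PC2 against Luc. These shares, 54.5% and 36.4%, lay near the 58.8% and 34.7% of all genes. In Luc against Non surgery Mycn fell by 1.59 ± 0.24 (adjusted p = 2.47e-05), at low levels, with means of 3.19 CPM in Non surgery and 1.06 in Luc libraries. Mxd1, a repressor that competes for MAX, fell by 0.64, from a mean of 407 to 262 CPM. Mga fell by 0.72 (adjusted p = 3.57e-08), Myc by 0.26 (adjusted p = 0.000785) and Mxd1 by 0.23 in PC2 against Luc, and Max rose by 0.12, a call lost without Luc replicate 1 or 3 or PC2 replicate 2 or 3. Summed levels of 16 cell cycle genes, which mark dividing cells, lay at 3217 to 3242 CPM in Non surgery, 2819 to 2858 in Luc and 2445 to 2467 in PC2 libraries, the order of the sum of the 39 genes on the same scale. Their genes did not move alike: 7 of the 16 rose and 9 fell in Luc against Non surgery (100% passed, beside 58.8% of all genes), and 8 fell and 2 rose between PC2 and Luc (62.5%, beside 34.7%). Their part in the result was not tested.

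In PC2 against Non surgery, 21 of the 39 genes passed (53.8%), 4 higher and 17 lower. Of all genes 62.7% passed, 31.5% higher and 31.2% lower. This comparison shares its libraries with the other 2, so its values are given beside theirs. Rrp12 stood at -1.05 and Utp20 at -0.91, after -0.90 and -0.59 in Luc against Non surgery. Wdr12 stood at -0.54, Heatr1 at -0.41, Polr1a at -0.40 and Ddx21 at -0.36, while Gar1 stood at 0.41 and Emg1 at 0.19. With library size in place of TMM factors, 13 of the 39 rose and 9 fell, where 65.04% of all genes passed, 7607 of 17478 being higher. Tcof1 was at -0.14, at 0.02 with library size only, and at -0.21 without Non surgery replicate 1, its lowest library of that group. Its call was lost without any 1 of the other libraries except PC2 replicate 2 (adjusted p from 0.0563 to 0.209). The call of Gnl3 was lost without Non surgery replicate 2 (0.10, adjusted p = 0.0947), and that of Nat10 without Non surgery replicate 2 or 3 or PC2 replicate 1 (adjusted p from 0.0552 to 0.19).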

How the data were processed

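The authors deposited, for every library, a table of raw counts by Ensembl gene ID. Its 5 HTSeq summary lines were left out. HISAT2, HTSeq, DESeq2 and mm10 were named, without versions, in the submitters' processing notes; their annotation release and strand setting are not given in the sources used here. Symbols, coordinates and lengths came from GENCODE M21 (GRCm38), which held 53274 of the IDs and not 105. An mRNA's length is that of the transcript with the longest coding sequence. The length trend was removed on a different measure, the merged length of all annotated exons of a gene. Reads that HTSeq assigned to no counted feature made up 7.29% to 9.25% of each library.

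Counts were tested with edgeR 4.0.16 in R 4.3.3 (glmQLFit and glmQLFTest, two-sided), all 9 libraries in 1 fit by group, with TMM factors, filterByExpr (minimum count 10) and Benjamini-Hochberg adjustment over 17478 genes. A standard error is the absolute log2 fold change divided by the root of the F statistic. CPM came from edgeR. The test code was checked on simulated counts. A check of the PC2 label against the counts is not reported here. Chi-square per degree of freedom between libraries of a group was 3.94 to 8.68 (genes with at least 20 counts in sum), so none was a copy.

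The members and lists were chosen with earlier results of these data known. Values per library are given for 2 to 4 genes of each role: those past an adjusted p of 0.05 in PC2 against Luc with the largest change, then those with the largest change in Luc against Non surgery, and always Fbl, Ncl, Npm1, Polr1a and Ubtf. From each pathway list, up to 4 passing genes with the largest change and at least 1 CPM were eligible. Alternatives were other scalings, DESeq2 1.42.0, no filter on low counts, the 2 compared groups alone, a replicate block, length and GC trends removed, muscle and mitochondrial genes left out, a fold change of 1.2 and each library left out.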

Additional observations from a re-analysis of the deposited data

Results flagged for a closer look

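Reads that HTSeq assigned to no counted feature, which enter no comparison above, were more frequent in operated joints. Where in the genome they lay was not looked at. They made up 7.29% to 7.37% of reads in the 3 Non surgery libraries, at least 8.89% in every Luc library and at least 8.05% in every PC2 library. They were looked at because the share in both operated groups lay above all control libraries, and their part in the results for the 39 genes was not tested. Groups of 3 libraries are too small for a test of single outlying libraries.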

How the results depend on the processing

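A fold change of at least 1.2 as well left 8, 3 and 10 of the 39 genes (Luc against Non surgery, PC2 against Luc, PC2 against Non surgery) and 10, 6 and 21 of the 99 other genes. Of all genes, 46.73%, 20.91% and 51.11% passed this rule. DESeq2 left 8 of the 39 and 12 of the 99 in PC2 against Luc, and removal of the length trend 20 of the 99, with or without the replicate block. With library size only, 52 of the 99 passed in Luc against Non surgery, where 63.27% of all genes did. Counts over the fits that leave out 1 library ranged from 14 to 17, 8 to 16 and 19 to 22 of the 39 genes, and from 19 to 25, 15 to 33 and 39 to 45 of the 99. Of all genes, 53.57% to 57.63%, 27.6% to 36.72% and 57.43% to 61.59% passed in these fits. In PC2 against Luc the 39 genes fell to 8 without either Luc replicate 1 or PC2 replicate 3, and to 9 without Luc replicate 2, PC2 replicate 1 and PC2 replicate 2 in turn. The 99 fell to 15 without Luc replicate 1, 16 without Luc replicate 3, and 19, 18 and 20 without PC2 replicates 1, 2 and 3. With library size only, the sign differed for 14, 0 and 12 of the 39 genes, of which 10, 0 and 6 were called under neither scaling. Of the named genes called under at least 1 of the scalings it turned in Luc against Non surgery for Baz2a (0.0379), Esf1 (0.15), Ncl (0.13), Nop14 (0.0115), Nop56 (0.15), Sirt7 (0.14) and Wdr43 (0.0462). In PC2 against Non surgery it turned for Bop1 (0.14), Fbl (0.16), Nat10 (0.0061), Nop56 (0.15), Npm1 (0.10) and Tcof1 (0.0219). Removing the length trend turned Polr1a in PC2 against Luc (0.0034, and 0.0021 with the replicate block). Beyond what fewer libraries or a stricter rule imply, the cause was not tested. Of the calls, 8 of 16, 5 of 14 and 12 of 21 were kept in all alternatives but the fold rule: Gar1, Gnl3, Nop2, Rrn3, Rrp12, Ubtf, Utp20 and Wdr12 in Luc against Non surgery, and Ddx21, Emg1, Heatr1, Ncl and Utp20 in PC2 against Luc. The matching share of all genes was not counted, so these counts cannot be set against a background. Libraries with the same number shared only that number (correlations of their deviations -0.027 to 0.057). The replicate block gave 17, 13 and 23 calls among the 39 genes, where 59.09%, 35.43% and 63.04% of all genes passed. The lowest count among the 39 genes was 159, for Gar1 in Non surgery replicate 1. The SD between libraries, as a percent of the mean and averaged over the 3 groups, was widest for Nop10 (9.93%), followed by Gar1 (8.87%).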
